A study of Mus musculus with 384 samples.

Results

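Single granulocyte-monocyte progenitors of mouse bone marrow that carried Irf8 messenger RNA but little or no Gfi1 messenger RNA are described here, and are called Irf8-only wells. A well of a 96-well plate held 1 sorted cell. A well was kept when at least 200000 of its reads lay on mouse genes and at least 2000 genes had a read, and 316 of 384 wells were kept. Expression is given as CPM, the reads of a gene per 1000000 reads on all mouse genes in the same well. The Irf8-only wells were those with Irf8 at 20 CPM or more and Gfi1 under 20 CPM, and 83 of the 316 wells met both conditions. The remaining 233 wells comprised 66 with both genes at 20 CPM or more, 146 with Gfi1 alone and 21 with neither. The members were chosen by their measured Irf8 and Gfi1 levels, so the values of these genes are a description and neither is treated as an outcome.

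The study sequenced progenitors from a mouse model of chronic myeloid leukaemia and from control mice by SMART-seq2, a full-length single-cell protocol without molecular identifiers. The model was the C57Bl/6 Scl-tTA::TRE-BCR/ABL mouse, in which the Scl promoter drives a tetracycline-controlled transactivator that switches on BCR-ABL when doxycycline is taken away. Animals were bred on drinking water with 20 mg/L doxycycline, BCR-ABL was induced at 5 weeks of age by withdrawal, and cells were taken 5 to 6 weeks later. Bone marrow was enriched for c-Kit with beads and then gated as lin-/c-Kit+/Sca-1-/CD34+ cells that also carried the Fc gamma receptor. Every well of every group passed that same gate, so the groups share the enrichment and the sort. The 4 deposited sets were labelled BA-1, BA-2 and BA-4, which are BCR-ABL, and Control. The labels call the comparison animals control and give neither their genotype nor their doxycycline history, and they do not say how many animals stand behind a set. There was 1 Control set, so the condition and the set cannot be told apart.

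Granulocyte-monocyte progenitors give rise to neutrophils and to monocytes. IRF8 is a transcription factor that promotes the monocyte and dendritic cell fates and restrains the neutrophil fate, and it acts on DNA together with ETS family partners such as PU.1. GFI1 is a transcriptional repressor needed for neutrophil formation, and IRF8 and GFI1 are known to oppose each other in these progenitors. Chronic myeloid leukaemia is driven by the BCR-ABL tyrosine kinase and is marked by an excess of granulocytic cells.

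The Irf8-only wells were unevenly spread over the sets. They were 15 of 72 wells of BA-1 (20.83%, exact 95% binomial interval 12.16 to 32.02), 15 of 59 of BA-2 (25.42%, 14.98 to 38.44), 1 of 91 of BA-4 (1.1%, 0.03 to 5.97) and 52 of 94 of Control (55.32%, 44.71 to 65.59). These intervals cover counting error only and not the spread between animals. The interval of Control does not overlap that of any BCR-ABL set, and the interval of BA-4 lies below those of BA-1 and BA-2. With 1 Control set there is no replicate check of the share. Differences in sum counts below use BA-1, BA-2 and Control, and leave out BA-4 because a sum over at least 5 wells was required.

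The members lay well inside the Irf8 threshold. Irf8 (ENSMUSG00000041515, chromosome 8, 120736358 to 120756694 in mm10) had medians of 568.7 CPM in BA-1, 742.6 in BA-2 and 995.6 in Control, and its lowest value in any of the 83 wells was 51.15 CPM. No member had Irf8 between 20 and 40 CPM, and 81 of the 83 had at least 100 CPM. Gfi1 had no read in 28 members and lay between 10 and 20 CPM in 7. Just outside the thresholds, 4 wells had Irf8 between 10 and 20 CPM with Gfi1 under 20, and 13 had Irf8 at 20 CPM or more with Gfi1 between 20 and 40.

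**Figure D1:**
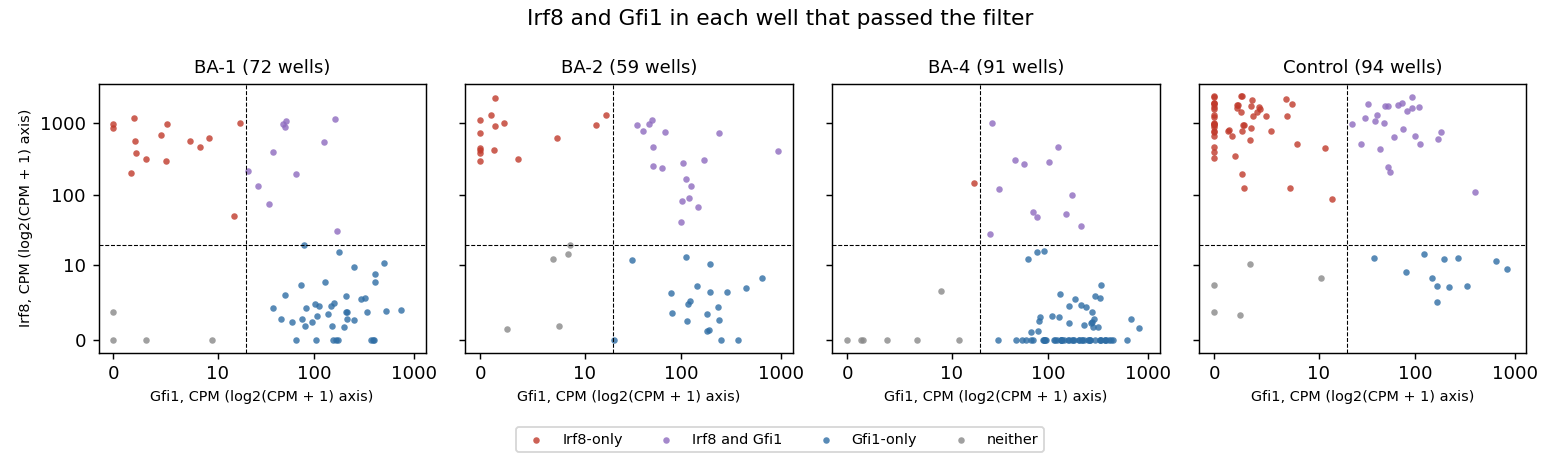
Irf8 against Gfi1 in each of the 316 kept wells, 1 panel per set, both in CPM on a log2(CPM + 1) axis, with dashed lines at 20 CPM. The Irf8-only wells fill the upper left of the Control panel (52 of 94 wells), and 1 of 91 BA-4 wells lies there.

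Members were read at least as deeply as the wells they were compared with. They had 603324 to 4719944 gene reads. Their median was 1798130 reads in BA-1, 2595624 in BA-2 and 1340543 in Control, against 1631308, 1743098 and 1196161 in the other wells. Members of the BCR-ABL sets also had more gene reads for each spike-in read, with medians of 310.5 in BA-1 and 335.6 in BA-2 against 220.7 and 201.7, while Control members had 212.8 against 195.8. At an equal depth of 200000 reads a median of 8043, 7919 and 7322.5 genes were detected in members of BA-1, BA-2 and Control, against 7486, 7367 and 7296. Against only the wells with both Irf8 and Gfi1 this did not hold in every set. Those wells had median reads of 2101299 in BA-1, 2408985 in BA-2 and 1248073 in Control, so the BA-1 members were read less deeply. Their medians for each spike-in read were 519.6, 291.7 and 206.1. At equal depth they had 8176, 7766.5 and 7424 genes. The part of these differences in the results was not tested. Xist had no read in any BA-2 member and 12.79 to 520.6 CPM in BA-1 members, so those sets did not come from animals of 1 sex.

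The name monocyte-primed is described with 4 marker genes. Ly86 is an accessory protein of the Toll-like receptor family member RP105, and Csf1r encodes the M-CSF receptor of the monocyte lineage. Ctss is a lysosomal cysteine protease, and Ighm is the immunoglobulin mu heavy chain. Members and markers were chosen with earlier results of these data known, so the counts are a description and not an independent check. At least 3 of the 4 genes reached 20 CPM in 69 of 83 members (83.1%), comprising 10 of 15 in BA-1, 12 of 15 in BA-2, 47 of 52 in Control and not the single BA-4 well. The same held for 41 of 66 wells with both Irf8 and Gfi1 (62.1%), 2 of 146 with Gfi1 alone (1.4%) and 1 of 21 with neither (4.8%). The pooled shares mix sets of unlike make-up. Within BA-1 the share was 66.7% of members against 63.6% of wells with both. It was 80% against 55.6% in BA-2 and 90.4% against 84% in Control, so BA-1 and Control differed little. In BA-4, 3 of 12 wells with both reached it. All 4 genes reached 20 CPM in 43 members and none did in 3. The BA-4 member was among those 3: it had Irf8 at 150.5 CPM and Gfi1 at 17.44 CPM, close to the Gfi1 threshold, and Ly6c2, a surface antigen of inflammatory monocytes, at 22.94 CPM. By these markers the label described most members and not that well.

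Members also kept the features of the sorted gate and of an early myeloid cell. The Fc gamma receptor gene Fcgr3 exceeded 20 CPM in all 83 members. Mpo, myeloperoxidase, had a median of 22655 CPM in BA-1 members, 28020 in BA-2 and 27882 in Control, against 30517, 27318 and 29568 in the other wells. Elane, neutrophil elastase, had medians of 10644, 11509 and 12106 CPM against 20913, 15792 and 14371. Neither of these primary granule genes passed the edgeR test against other wells, over all genes or among genes at 20 CPM (Mpo log2 fold change -0.12, SE 0.057; Elane -0.41, SE 0.104). Over the list of primary granule genes, 12 of 15 had a negative log2 fold change in members, with a median of -0.34. The summed CPM of the list had medians of 57550, 63076 and 59453 in members of BA-1, BA-2 and Control against 88371, 73998 and 70720. Primary granule transcripts were thus abundant in members, at lower medians than in the other wells.

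The first question was which other genes set these wells apart from all other wells of the same set. Counts were summed over the wells of each class in each set, giving 3 pairs of sums, and were tested with edgeR's quasi-likelihood test with the set as a block. Of 15553 genes tested, 0 were higher (0% called) and 1 was lower (0.00643% called) at an adjusted p under 0.05, while the unadjusted p lay under 0.05 for 1516. The DESeq2 alternative called 271 higher and 475 lower. Many of the 15553 genes had few reads. The same test was therefore repeated on the 7578 genes that reached 20 CPM on average over the sets in members or in the other wells. This alternative was added after the data had been seen. A gene could enter through only the class where it was high, so the filter was not independent of the contrast tested. Its calls are therefore descriptions. The repeated test called 16 genes higher (0.211%) and 35 lower (0.462%). A rule without a test, at least 2-fold the same way in each of the 3 sets, held for 18 genes higher (0.238%) and 44 lower (0.581%) of 7577.

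Of the 14 measured genes of the monocyte identity list at 20 CPM, 5 were called higher by that added test and 0 lower: F13a1, Ms4a6c, Csf1r, Ifi30 and Pld4. Csf1r ranged from 0 to 309.9 CPM with a median of 133.4 in BA-1 members, from 87.85 to 273.5 with a median of 170.3 in BA-2, and from 0.9908 to 1161 with a median of 285.8 in Control. The other wells had medians of 29.68, 53.08 and 106.5 CPM, so the median was higher in members of every set while single wells overlapped. Its log2 fold change was 0.91 (SE 0.124, edgeR adjusted p = 0.0272 among genes at 20 CPM and 0.346 among all genes). F13a1, the A subunit of coagulation factor XIII, found in monocytes, had medians of 1149, 657.8 and 866.8 CPM in members of BA-1, BA-2 and Control against 417.8, 293 and 192.6. Every BA-1 and BA-2 member had at least 114 CPM of it. The log2 fold change of F13a1 was 0.96 (SE 0.09, edgeR adjusted p = 0.00589 among genes at 20 CPM). Ms4a6c, a membrane protein of the monocyte and macrophage lineage, had medians of 145.9, 148.9 and 199.3 CPM against 33.78, 44.2 and 40.09, with a log2 fold change of 1.25 (SE 0.124, edgeR adjusted p = 0.00854 among genes at 20 CPM).

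Ifi30, a lysosomal thiol reductase that helps antigens unfold, had medians of 48.45, 28.72 and 42.8 CPM in members against 0.9796, 0.4523 and 1.484. In BA-2, 50.94% of the Ifi30 reads of members came from 1 well. Pld4, a nuclease of endolysosomes, had medians of 25.22, 30.44 and 122.5 CPM against 0, 0.5844 and 2.762. Both genes were therefore near 0 in most other wells of each set. Their log2 fold changes were 1.56 (SE 0.227) for Ifi30 and 1.19 (SE 0.18) for Pld4. Ly86 did not pass (log2 fold change 1.24, SE 0.261, edgeR adjusted p = 0.0954 among genes at 20 CPM). Its medians were 180 CPM in BA-1, 101.8 in BA-2 and 335.7 in Control against 0.5378, 2.107 and 170.9, so the ratio of the medians was smallest in Control. Ccr2, the chemokine receptor that lets monocytes leave the marrow, had medians of 190.8, 72.93 and 161.9 CPM against 4.937, 2.154 and 19.89, and did not pass (edgeR adjusted p = 0.0594 among genes at 20 CPM). Ly6c2 had medians of 4107, 3480 and 6663 CPM in members against 4269, 4327 and 3922, with a log2 fold change of 0.24 (SE 0.145), so this gene was as high in the other wells of the BCR-ABL sets.

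**Figure D2:**
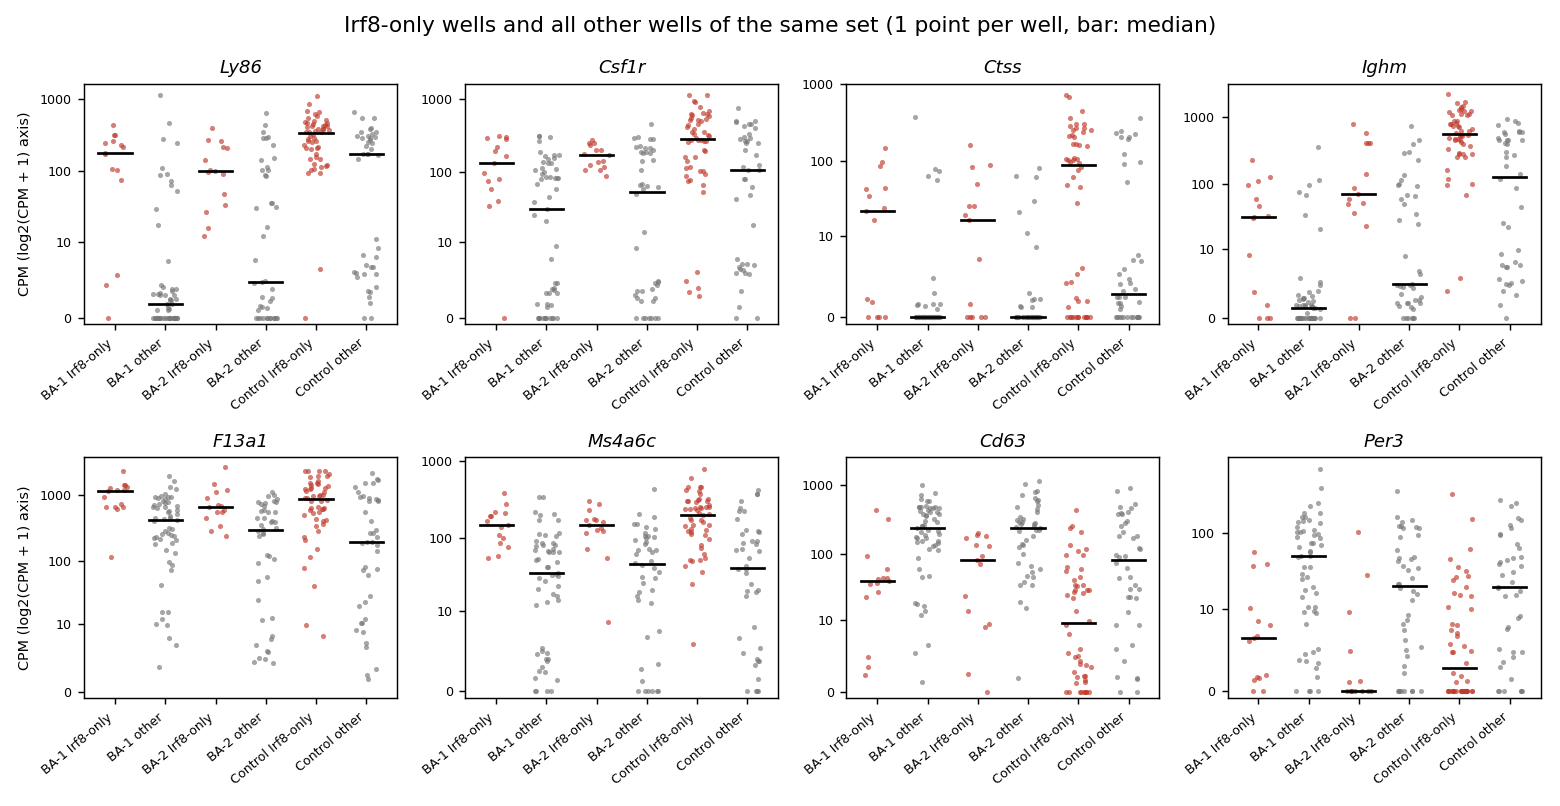
CPM of Ly86, Csf1r, Ctss, Ighm, F13a1, Ms4a6c, Cd63 and Per3 in each Irf8-only well (red) and each other well (grey) of BA-1, BA-2 and Control, on a log2(CPM + 1) axis with a bar at each median. The medians of the first 6 genes are higher and those of Cd63 and Per3 lower in Irf8-only wells of each set, and single wells overlap.

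Among genes of lysosomes and cathepsins, 3 of 19 were called higher and 0 lower: Ctss, Ctsc and Psap. Ctss (ENSMUSG00000038642, chromosome 3, 95526786 to 95556403) ranged from 0 to 148.9 CPM with a median of 22 in BA-1 members, from 0 to 164.5 with a median of 16.59 in BA-2, and from 0 to 713.8 with a median of 89.12 in Control. Its medians in the other wells were 0, 0 and 1.002 CPM. It reached 20 CPM in 8 of 15, 6 of 15 and 32 of 52 members, so many members lay below that level. The log2 fold change of Ctss was 1.84 (SE 0.277, edgeR adjusted p = 0.0384 among genes at 20 CPM). Ctsc, cathepsin C, which activates the serine proteases of granules, had medians of 287.6, 383.4 and 240.9 CPM against 61.87, 73.79 and 162 (log2 fold change 1.21, SE 0.161). Psap, the precursor of the saposins that help break down sphingolipids, had medians of 335.1, 321.7 and 495.8 against 168.6, 196.5 and 273 (log2 fold change 0.77, SE 0.117). Over the whole list, 15 of 19 tested genes had a positive log2 fold change, with a median of 0.24. For all 15553 genes tested the median was -0.04.

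Of 6 lymphoid genes at 20 CPM, 1 was called higher, Ighm (ENSMUSG00000076617, a constant region gene, chromosome 12, 113418558 to 113422730). It ranged from 0 to 233.8 CPM with a median of 31.78 in BA-1 members, from 0 to 801.2 with a median of 71.37 in BA-2, and from 1.565 to 2264 with a median of 558.5 in Control. The other wells had medians of 0.4232, 2.221 and 129 CPM. The log2 fold change of Ighm was 1.601 (SE 0.177, edgeR adjusted p = 0.0132 among genes at 20 CPM). Igll1, the surrogate light chain of B cell precursors, had a median of 0 CPM in members of BA-1, BA-2 and Control and reached 20 CPM in 1, 1 and 0 wells.

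Of 16 cytokine receptor genes at 20 CPM, Il6st and Csf1r were called higher and 0 were lower. Il6st encodes gp130, the signalling chain shared by the receptors for interleukin 6 and related cytokines. Its medians in members were 45.37 CPM in BA-1, 67.17 in BA-2 and 48.19 in Control, against 0, 0.4042 and 1.394 in the other wells. Most other wells thus had few or no Il6st reads in any set, and the log2 fold change was 2.03 (SE 0.242, edgeR adjusted p = 0.0172 among genes at 20 CPM). Vim, the intermediate filament protein vimentin, was higher from a high base, with medians of 700.4, 517.7 and 1017 CPM against 291.6, 301.6 and 459.8 (log2 fold change 0.84, SE 0.09). Rassf4, a Ras association domain protein, and Degs1, a desaturase of ceramide synthesis, also passed, with log2 fold changes of 0.96 (SE 0.119) and 1.12 (SE 0.137). The remaining called genes were Txndc5, Milr1 and Soat1, which the naming rule did not pick and which are named after their values were seen.

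Klf4, a transcription factor of monocyte differentiation, was present in a minority of members. It reached 20 CPM in 5 of 15 members of BA-1, 3 of 15 of BA-2 and 15 of 52 of Control, against 1 of 57, 0 of 44 and 5 of 42 other wells. At an equal depth of 200000 reads, a Klf4 read was found in 53.33%, 33.33% and 48.08% of members and in 7.018%, 4.545% and 21.43% of other wells. Its log2 fold change was 3.22 (SE 0.6, edgeR adjusted p = 0.0664 among genes at 20 CPM), which did not pass. Nrp1, neuropilin 1, showed the same sparse form, with 1, 5 and 21 members at 20 CPM against 1, 1 and 5 other wells.

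**Figure D3:**
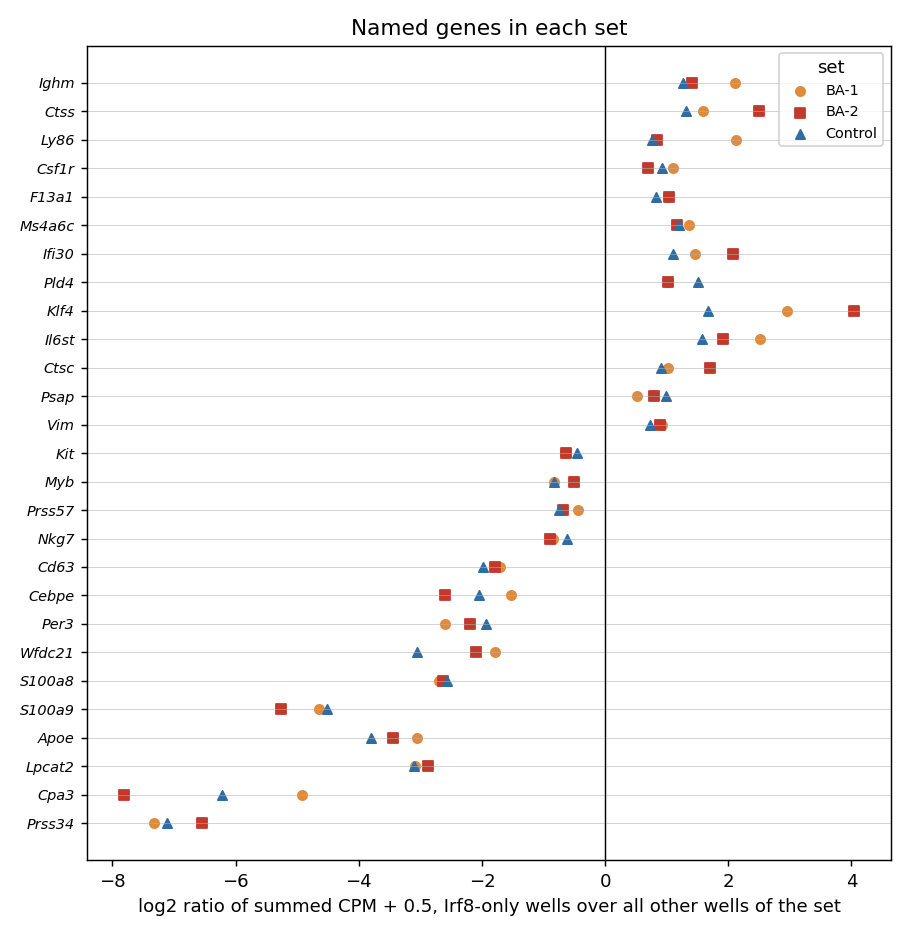
log2 ratio of summed CPM in Irf8-only wells to that in all other wells of the same set, with 0.5 CPM added to both sums, for a choice of genes named in the text. Each gene has 1 point per set (BA-1, BA-2, Control). The plotted genes from Ighm to Vim lie above 0 in each set and those from Kit to Prss34 below it. Chil3, Lyz2, Lcn2 and Lrg1, late granule genes whose ratios differ in sign between sets, are not plotted.

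The genes lower in Irf8-only wells were led by S100a8, a calcium-binding protein of neutrophil granules and cytosol (ENSMUSG00000056054, chromosome 3, 90668978 to 90670035). It was the 1 gene that passed the test over all genes (log2 fold change -2.62, SE 0.087, edgeR adjusted p = 0.0446). Its summed level was 97.91 CPM in members of BA-1, 73.65 in BA-2 and 47.47 in Control, against 636.3, 460.2 and 282.1 in the other wells. The medians of single wells showed a different picture: 21.29, 5.51 and 8.863 CPM in members against 227.1, 65.19 and 5.237. In Control the lower sum thus went with a median that was not lower, and 36.08% of the S100a8 reads of the other wells came from 1 well, which held 6905 CPM. With 1 set left out, the log2 fold change of S100a8 stayed at -2.58 without BA-1, -2.61 without BA-2 and -2.66 without Control, and the smaller designs did not call it (edgeR adjusted p = 0.741, 0.445 and 0.474).

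Of 7 late granule and mature neutrophil genes at 20 CPM, 3 were called lower in the added test and 0 higher: S100a8, S100a9 and Wfdc21. Of all 14 genes of the list that were tested, 9 had a negative and 5 a positive log2 fold change, with a median of -0.63. The summed CPM of the list had medians of 892.6, 650.1 and 921.6 in members of BA-1, BA-2 and Control against 1365, 890.5 and 542.1, so in Control the median member was higher. There Lyz2 had 1230 CPM in the sum of members against 509, and Chil3 63.94 against 13.74. S100a9, the partner of S100a8, reached 20 CPM in 0, 1 and 1 members and in 17 of 57, 12 of 44 and 5 of 42 other wells. In BA-1 55.84% of its reads in other wells came from 1 well. Of 10 neutrophil regulators and receptors, Per3 and Cebpe were called lower and 0 higher. Cebpe, a transcription factor of granulocyte maturation, had medians of 10.85, 15.15 and 1.558 CPM in members of BA-1, BA-2 and Control against 60.77, 45.62 and 15.7 (log2 fold change -2.10, SE 0.267, edgeR adjusted p = 0.0227 among genes at 20 CPM). Unlike S100a8, its median was lower in members of every set. Per3, a circadian clock gene, had medians of 3.603, 0 and 0.9931 CPM against 50.01, 20.2 and 19.52 (log2 fold change -2.30, SE 0.266).

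Of 15 primary granule genes, 2 were called lower and 0 higher. Nkg7, a granule membrane protein, had medians of 866.5, 715.1 and 668.8 CPM in members against 1478, 1318 and 907.7 (log2 fold change -0.79, SE 0.094). Prss57, a serine protease of azurophil granules, had medians of 520.8, 359.7 and 138.8 against 675.3, 559.4 and 268 (log2 fold change -0.63, SE 0.1). Cd63, a tetraspanin of granule and lysosome membranes, had medians of 39.97, 82.34 and 9.007 CPM against 237.5, 239.9 and 81.87, a log2 fold change of -1.84 (SE 0.124, edgeR adjusted p = 0.00134 among genes at 20 CPM). These 3 genes were lower by the median well and not only by the sum in each set. Cd63-ps, a pseudogene that resembles Cd63, was called lower too, and the reads of the pair could be split between them.

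Genes of other lineages were also lower, and their sums rested on few wells. Of 6 basophil and mast cell genes at 20 CPM, Prss34 and Cpa3 were called lower and 0 higher. Prss34, a mast cell protease, reached 20 CPM in 0 members and in 1 other well of each set, and that well held 99.51% (BA-1), 99.23% (BA-2) and 98.47% (Control) of the reads. Cpa3, mast cell carboxypeptidase, reached 20 CPM in 1 of 15, 0 of 15 and 1 of 52 members and in 4 of 57, 8 of 44 and 12 of 42 other wells. The reads of both genes thus lay in a few of the other wells and in almost no member. Apoe, apolipoprotein E, was lower in the sums (log2 fold change -3.48, SE 0.18), with 70.77% of its reads in other wells of BA-1 from 1 well.

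Of 10 early progenitor genes at 20 CPM, 1 was called lower. Myb, a transcription factor of immature blood cells, had medians of 228.9, 343.5 and 243.4 CPM in members against 499.3, 475.7 and 460 (log2 fold change -0.73, SE 0.106, edgeR adjusted p = 0.0354 among genes at 20 CPM). Kit, the receptor used for the sort, had medians of 150.8, 183.5 and 182.5 against 275.3, 222 and 228.4, and did not pass (edgeR adjusted p = 0.0654 among genes at 20 CPM). Over the early progenitor list, 16 of 18 tested genes had a negative log2 fold change, with a median of -0.70.

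No gene of the cell cycle lists passed the edgeR test. The summed CPM of the S phase genes had a median of 6224 in members of BA-1, 7931 in BA-2 and 5666 in Control, against 4467, 4263 and 4621 in the other wells, so the median member was higher in each set while single wells overlapped. Each of the 26 S phase genes tested had a positive log2 fold change in members, with a median of 0.28, and 0 passed the edgeR test either over all genes or at 20 CPM, while 4 had an unadjusted p under 0.05. The 24 genes of G2/M and mitosis had a median of -0.03, with 10 positive and 14 negative. Antigen presentation genes had 2 positive and 9 negative of 11, with a median of -0.15, and 0 passed (1 at an unadjusted p under 0.05). Against only the wells with both Irf8 and Gfi1, the S phase genes had 17 positive and 9 negative, with a median of 0.04. Their summed CPM had medians of 7577, 5407 and 4808 in those wells of BA-1, BA-2 and Control, so the median BA-1 member was not higher.

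The promoters of the genes at least 2-fold higher in every set were searched for sequences that IRF8 and its partners are known to bind. The window ran from 250 bases before to 50 bases after the RefSeq gene start in GRCm38.p6, on both strands. A window was found for 16 of the 18 higher genes, for 32 of the 44 lower genes and for 5847 of the 7577 genes. The ETS-IRF composite, GGAA and GAAA with any 2 bases between them, was present in 2 of 16 higher genes (12.5%), 2 of 32 lower genes (6.2%) and 172 of 5847 genes (2.9%). A pair of IRF sites, GAAA and GAAA with any 2 bases between them, was present in 2 (12.5%), 2 (6.2%) and 213 (3.6%). GAGGAAGT, a PU.1 sequence, was present in 3 (18.8%), 2 (6.2%) and 227 (3.9%). A match is a description of the letters and not of binding, and the counts are small. The windows below show the matches in capitals for Ctss, Gbp7, Il6st, Myadm and Btla, 5′ to 3′ on the plus strand. They are shown because their matches lie before the gene start, in contrast to the PU.1 matches of Pld4 and Ctss, which are not shown. Gbp7, an interferon-inducible guanylate-binding protein, is named after its values were seen. They lie at chr3:95526745-95526785, chr3:142530263-142530312, chr13:112463826-112463875, chr7:3288788-3288837 and chr16:45224299-45224336, in that order.
Ctss: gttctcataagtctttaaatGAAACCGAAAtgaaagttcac
Gbp7: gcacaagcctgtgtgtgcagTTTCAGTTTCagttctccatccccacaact
Il6st: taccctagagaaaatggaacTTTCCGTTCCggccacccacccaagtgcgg
Myadm: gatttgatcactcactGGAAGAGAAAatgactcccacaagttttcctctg
Btla: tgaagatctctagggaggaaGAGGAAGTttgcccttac
The matches in Gbp7 and Il6st read on the minus strand. Ctss, which was called higher above, has its pair of IRF sites 21 bases before the gene start. Gbp7 had summed levels of 59.47, 51.63 and 58.99 CPM in members of BA-1, BA-2 and Control against 26.47, 24.4 and 25.61, about the same in all 3 sets.

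The nearest neighbours of the Irf8-only wells were the wells with both Irf8 and Gfi1, and fewer genes met the 2-fold rule between them. Of 14140 genes tested, edgeR called 0 higher and 0 lower (unadjusted p under 0.05 in 456, smallest adjusted p 1), and 0 of 7453 genes at 20 CPM (smallest adjusted p 0.999). DESeq2 called 20 higher and 24 lower. At least 2-fold the same way in each set were 4 genes higher (0.0537% of 7451), Klf4, Inpp5f, Fkbp1b and Thada, and 2 lower (0.0268%), Ccl4 and Slc35a5. Klf4 had summed levels of 16.35 CPM in Irf8-only wells of BA-1, 21.81 in BA-2 and 22.14 in Control against 4.722, 0.3954 and 10.3. Thada, a gene linked to thyroid adenoma, had 43.7, 34.52 and 55.66 CPM against 17.58, 11.93 and 22.06 (log2 fold change 1.40, SE 0.202).

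The genes that marked members against all other wells had smaller fold changes here. Csf1r had a log2 fold change of 0.16 (SE 0.117) against wells with both, Ly86 0.26 (SE 0.138), Ighm 0.70 (SE 0.129), Ctss 0.73 (SE 0.422) and Il6st 1.04. None of these passed the edgeR test. With BA-4 added, where 1 member stands against 12 wells with both, Ighm, Csf1r, Ly86 and Ctss turned to -0.14, -0.75, -0.50 and -0.16. The difference between the 2 comparisons was not tested, since they share the members. The make-up of the other wells also differed by set: wells with Gfi1 alone were 42 of 57 in BA-1, 21 of 44 in BA-2 and 12 of 42 in Control.

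Within the Irf8-only wells the markers varied from cell to cell. Across the wells of a set, Spearman's rho between Irf8 and Csf1r was 0.62 in BA-1 (n = 15), 0.57 in BA-2 (n = 15) and 0.50 in Control (n = 52). Irf8 and Ighm gave 0.25, 0.56 and 0.50, and Irf8 and Ly86 gave 0.53, 0.19 and 0.32. Irf8 and Ctss gave 0.45, -0.33 and 0.44, so the sign differed in BA-2. Irf8 and Klf4 gave 0.03, 0.06 and 0.35. Csf1r and Ighm gave 0.08 in BA-1, 0.92 in BA-2 and 0.44 in Control. The summed S phase genes and the summed G2/M genes gave -0.54, -0.22 and -0.55. The points share a plate and the wells' depth, and Irf8 against the number of gene reads gave 0.39, 0.02 and 0.11. These are descriptions within 1 set each.

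The second question was how BCR-ABL members differed from Control members. BA-1 and BA-2 were each summed over 15 members and Control over 52, so the test compares 2 sums with 1. The Abl1 and Bcr rows of the mouse annotation had 14.88 and 18 CPM in BA-1 members, 27.92 and 19.45 in BA-2, and 37.98 and 25.24 in Control. They do not check the transgene, whose reads were not analysed here. Of 16010 genes tested, edgeR called 0 higher and 0 lower (unadjusted p under 0.05 in 797, smallest adjusted p 0.842). It called 0 of 7571 at 20 CPM (smallest adjusted p 0.073), and DESeq2 called 86 higher and 50 lower. At least 2-fold in both BCR-ABL sums were 59 genes higher (0.779% of 7571) and 142 lower (1.88%). The compared sets differ in sex-linked genes. Xist, from the inactive X chromosome, had 181.2 CPM in the sum of BA-1 members, 0 in BA-2 and 421.8 in Control, and is among the 142. The Y-linked gene Eif2s3y had 81.04 CPM in BA-2 and 0 in BA-1 and Control. The part of this difference in the other genes was not tested. The genes below are described by their values and are not calls of the main test.

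Lrg1 and Ifitm1 came first among the named genes with reads in Control when ordered by the smaller of their ratios in BA-1 and BA-2. Ifitm1, an interferon-induced membrane protein also found on blood stem cells (ENSMUSG00000025491, chromosome 7, 140967221 to 140969825), ranged from 2.162 to 735.4 CPM with a median of 214.9 in BA-1 members, and from 0 to 1143 with a median of 238.2 in BA-2. In Control members it ranged from 0 to 168.9 with a median of 3.136. The ranges overlap, but both BCR-ABL medians lie above the highest Control well. The summed level was 13.7-fold higher in BA-1 and 16-fold higher in BA-2 than in Control (log2 fold change 3.93, SE 0.237, edgeR adjusted p = 0.842 over all genes). With each well thinned to 200000 reads Ifitm1 did pass (edgeR adjusted p = 0.00669). Lrg1, a secreted glycoprotein of neutrophil granules, reached 20 CPM in 9 of 15 BA-1 members, 8 of 15 BA-2 members and 1 of 52 Control members. Its medians were 33, 24.44 and 0 CPM, and it too passed on thinned reads.

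Other granule genes were higher by the sums. Lcn2, the iron-siderophore binding protein of secondary granules, ranged from 130.3 to 1127 CPM with a median of 410.6 in BA-1 members and from 38.12 to 767.1 with a median of 228.6 in BA-2. In Control members it ranged from 0 to 398.9 with a median of 21.18, so the ranges overlap while the medians stand apart. Chil3, a chitinase-like secreted protein, had summed levels of 678.9 and 259.4 CPM against 63.94, and Wfdc21 27.86 and 17.52 against 1.803. Lyz2, lysozyme of granulocytes and macrophages, went the other way, with 286.9 and 444.6 CPM against 1230. Over the late granule and mature neutrophil list, 11 of 14 tested genes had a positive log2 fold change, with a median of 1.24, and the median over all 16010 genes was -0.00. Of its 6 genes at 20 CPM, 4 were at least 2-fold higher and 1, Lyz2, was at least 2-fold lower. Primary granule genes had 11 of 15 positive with a median of 0.24, and 0 of them passed the 2-fold rule.

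Further named genes had higher sums in both BCR-ABL sets. Gclm, the modifier subunit of the enzyme that starts glutathione synthesis, had medians of 188.3 CPM in BA-1 members, 185.2 in BA-2 and 41.7 in Control, and its sums were 3.34 and 3.22 times that of Control. Asns, asparagine synthetase, had summed levels of 96.02 and 83.81 CPM against 24.49. Hoxa9, a homeobox gene of early progenitors, had 24.5 and 31.84 against 9.148. Ccne1, cyclin E1, had 60.91 and 70.78 against 30.38. Socs3, a feedback inhibitor of cytokine signalling, had 22.88 and 11.29 CPM against 0 in all 52 Control members. It did not meet the 2-fold rule with its 20 CPM filter. Most of its list of STAT5 and SOCS genes went the other way. There 4 of 12 genes had a positive and 8 a negative log2 fold change, with a median of -0.13. All 5 at 20 CPM were negative. S phase genes had 25 of 26 positive with a median of 0.25, and G2/M genes 19 of 24 negative with a median of -0.26.

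**Figure D4:**
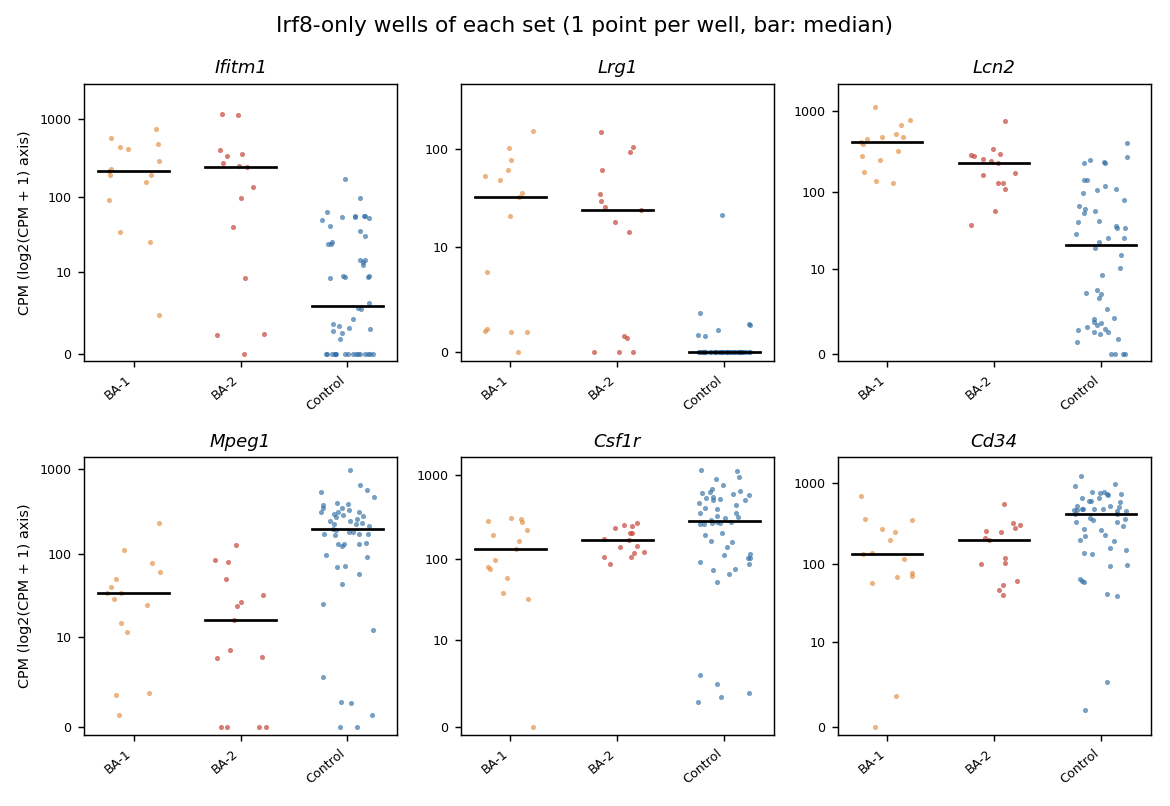
CPM of genes named in the text in each Irf8-only well of BA-1, BA-2 and Control, on a log2(CPM + 1) axis, with a bar at each median. Ifitm1, Lrg1 and Lcn2 sit higher in the BCR-ABL members and Mpeg1, Csf1r and Cd34 lower by their medians, and the wells of the 3 sets overlap.

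Among genes of the monocyte identity list and genes that had marked the class, some had lower values in the BCR-ABL members and others did not. Mpeg1, the pore-forming perforin-2 of macrophages (ENSMUSG00000046805, chromosome 19, 12460779 to 12465283), ranged from 0.3733 to 229.9 CPM with a median of 34.43 in BA-1 members and from 0 to 129.3 with a median of 16.45 in BA-2. Control members ranged from 0 to 953.1 with a median of 195.5. Its sum was 5 times higher in Control than in BA-1 and 8.51 times higher than in BA-2. Mpeg1 is of the monocyte identity list and was not among the genes called higher in members against other wells. Csf1r had summed levels of 166.4 and 179.4 CPM in BA-1 and BA-2 against 368.2, and Ctss 36.31 and 38.71 against 124.6. Ighm was uneven between the BCR-ABL sets, with 54.42 and 223.9 CPM against 688.3. F13a1 had 1136 and 858.2 CPM against 985, Ifi30 82.01 and 101.4 against 75.42, and Ctsc 395.8 and 527.7 against 325.4, so these 3 genes were not lower in both BCR-ABL sums. Of the monocyte identity genes, 15 of 20 had a negative log2 fold change, with a median of -0.43. Of 16 at 20 CPM, 4 were at least 2-fold lower: Csf1r, Cx3cr1, Mpeg1 and Pld4. Of the lysosome genes 15 of 20 were negative with a median of -0.45, and Ctss and Ctsh were at least 2-fold lower. Of the list of interferon-stimulated genes, which does not hold Ifitm1, 20 of 25 were negative with a median of -1.03. Of the 9 at 20 CPM, 6 were negative and 3 positive with a median of -0.68, and 1, Ifi203, was at least 2-fold lower.

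Further named genes had lower sums in both BCR-ABL sets. Cd34, the antigen used in the sort, ranged from 0 to 684.6 CPM with a median of 132.5 in BA-1 members and from 41.33 to 542.5 with a median of 196.6 in BA-2. Control members ranged from 0.6464 to 1211 with a median of 406.2, so the ranges overlap widely. Cd93, a C-type lectin-like receptor, had summed levels of 133.1 and 140.5 CPM against 358.8. Ncf4, the p40 subunit of the phagocyte oxidase, had 196.4 and 184 against 463.1. In the other wells Ncf4 had 166.8 and 164.6 CPM against 349.1, so its difference was not limited to members. Selplg, the selectin ligand PSGL-1, had 320.5 and 352.8 against 693.7. Bcl2, an inhibitor of apoptosis, had 17.93 and 22.18 against 90.81, and Zbtb20, a zinc finger repressor, was 10.4 times higher in Control than in BA-1 and 26.7 times higher than in BA-2. In all of these BA-1 and BA-2 lay on the same side of the 1 Control set, and no spread between Control animals is known.

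The last comparison asked whether the difference between members and other wells changed with the condition. Of 18936 genes tested for this interaction, edgeR called 0 in either direction (unadjusted p under 0.05 in 810, smallest adjusted p 0.922), and DESeq2 called 25 higher and 36 lower. The member-specific part of the BCR-ABL differences was therefore not detectable by edgeR with 6 sums.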

How the data were processed

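The values deposited by the authors are read counts per gene and well, in 4 tables of 96 wells. Per the submitters' processing notes, GSNAP, HTSeq 0.5.3p3 and the build mm10 were used. Of all reads, 44.92% lay on the 46078 gene rows, 0.265% on 92 spike-in rows and 54.81% on 5 summary rows, which entered no total. Symbols came from GENCODE vM21 and matched 45143 gene rows. No doublet caller was run, and no pair of wells had equal counts. Kept wells had 215800 to 4758711 gene reads.

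Counts were summed per class and set and tested with edgeR 4.0.16 (R 4.3.3; TMM, filterByExpr, Benjamini-Hochberg). The set was a block in comparisons of classes. DESeq2 1.42.0, limma 3.58.1 and other settings were alternatives. Thinning used seed 11. Wells are cells and not replicates; a set is the replicate, and nothing states that sets are separate animals. The script was tested on simulated data with planted changes. At a log2 change of 1, the edgeR test recovered 32.8% of changed genes for members against other wells and 29% against wells with both. It recovered 9.2% for BCR-ABL against Control members and 0% for the interaction. At a log2 change of 4 the shares were 70.1%, 68.6%, 55.6% and 47.3%. A count of 0 calls thus does not show that 2-fold changes are absent.

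Named genes were those with the largest changes past the test or the 2-fold rule (the smallest p where fewer than 5 passed), read in at least 25% of wells of the higher class and at 20 CPM there, the markers, and up to 3 genes of each list by p. The members, their markers and the gene lists were chosen with earlier results of these data known. The 2-fold selection for members against other wells, and the test on genes at 20 CPM, were added after the data had been seen. Their 20 CPM filter took the higher class, so it depends on the contrast.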

Additional observations from a re-analysis of the deposited data

Results flagged for a closer look

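The genes named for the smallest unadjusted p in the interaction test were looked at by set. For 5 of them the ratio of Irf8-only to other wells pointed one way in Control and the other way in both BCR-ABL sets. They were chosen by that same contrast, and such genes were not counted over all 18936 genes tested. The interaction test gave edgeR adjusted p = 0.922 for each of the 5, so none of the differences passed. For Ifitm1 the log2 ratio was -1.26 in Control, 0.793 in BA-1 and 1.003 in BA-2: the summed level was 18.86 CPM in Control members and 45.86 in the other Control wells, against 259 and 149.3 in BA-1. For Lrg1 the log2 ratio was -2.494 in Control, 0.158 in BA-1 and 0.366 in BA-2. Chil3 had 2.178 in Control, -0.052 in BA-1 and -0.324 in BA-2, and Lyz2 had 1.273, -0.086 and -0.15. Far2, a fatty acyl-CoA reductase, had 0.161, -2.3 and -2.021: its summed level in the other wells was 30.78 CPM in Control, 222.4 in BA-1 and 211.8 in BA-2. The other wells were mostly wells with Gfi1 alone in BA-1 (42 of 57) and less so in Control (12 of 42), and the part of this in the ratios was not tested.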

How the results depend on the processing

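Members against all other wells gave 0 genes higher and 1 lower (S100a8) in the edgeR test. The lower count was 3 without a filter, 0 with BA-4 added, 0 with Gfi1 under 5 CPM, 0 against wells with Gfi1 alone and 0 without any 1 set. Without the replicate block, that is without the set as a pairing of the sums, it was 2. DESeq2 gave 271 higher and 475 lower, wells thinned to 200000 reads 5 and 13, and genes at 20 CPM 16 and 35. The 2-fold counts of 18 higher and 44 lower became 6 and 24 with BA-4 added, 32 higher when thinned, 72 and 119 against wells with Gfi1 alone, and 28 to 44 higher and 65 to 117 lower without 1 set (84 without BA-1, 65 without BA-2, 117 without Control). Against wells with both genes, DESeq2 gave 20 and 24, and the 2-fold counts of 4 and 2 became 0 lower with BA-4 added, 2 higher with Gfi1 under 5 CPM, and 21 to 27 higher and 15 to 41 lower without 1 set. There Ighm turned to -0.144, Csf1r to -0.746, Ly86 to -0.501 and Ctss to -0.162 with BA-4 added, and Ly86 to -0.025 when thinned. For BCR-ABL against Control members, edgeR gave 1 higher without a filter, DESeq2 86 and 50, thinned wells 2 and 1, and the 2-fold counts of 59 and 142 became 189 to 209 and 377 to 421 without 1 BCR-ABL set. The interaction gave 25 and 36 with DESeq2 and 1 and 1 when thinned. The share of Irf8-only wells in BA-4 was 0 with Gfi1 under 5 CPM. The causes were not tested. Comparisons of conditions without Control, and the interaction without 1 BCR-ABL set, could not be fitted, and the edgeR test of BCR-ABL against Control members without 1 BCR-ABL set left no residual degrees of freedom. Intervals on shares cover counting error only.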

Other observations

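The share of genes that met the 2-fold rule between BCR-ABL and Control members differed by chromosome, on small counts, and this was not tested. Over all 7571 genes at 20 CPM, 59 were higher (0.779%) and 142 lower (1.88%) in both BCR-ABL sums, and edgeR called 0 of them. Of the 296 genes of chromosome 15 at 20 CPM, 15 met the 2-fold rule in both BCR-ABL sums (5.07%; 8 higher and 7 lower), while the shares of the other autosomes and X lay between 1.03% and 4.2%. A window from 78 to 83 Mb of chromosome 15 in mm10, chosen after its values were seen, held 57 such genes, of which 4 were higher (Ift27, Apobec3, Rpl3 and Pmm1) and 2 lower (Ncf4 and Lgals1), or 10.5%. Rpl3, a protein of the large ribosomal subunit, had summed levels of 303.9 CPM in BA-1 members, 250 in BA-2 and 79.73 in Control. In the other wells it had 267.2, 239.2 and 86.13 CPM. Apobec3, a cytidine deaminase that restricts retroviruses, had 356.6, 258.3 and 87.44 CPM in members and 247.5, 242.5 and 110.2 in the other wells. Lgals1, galectin-1, had 548.5, 538.1 and 1372 CPM in members and 337, 420 and 1126 in the other wells. The differences of these 3 genes between sets thus stood in both classes of well. With 1 Control set, condition and set cannot be told apart here.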
